A study of Homo sapiens with 21 samples.

Results

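Peaks of DNA-RNA hybrid signal that sat at the start of a gene outside divergent gene pairs, here called single starts, were described in 6 DRIP-seq libraries of MDA-MB-436, a BRCA1-mutant breast cancer cell line. A peak belonged to the set when its summit lay on chromosomes 1 to 22 or X and within 1000 bp of the start of a gene in the deposited count table (build hg38). Starts of divergent pairs, in which a minus-strand start lies 0 to 1000 bp upstream of a plus-strand start, were left out. Over the 6 libraries the set held 29609 of 253906 peaks, between 4562 and 6006 in each library. The table gave 26018 genes with 1 locus on these chromosomes, of which 2756 had a start in a divergent pair, and the other 23262 genes had 23057 distinct single start positions. A start shared by several genes (155 positions) was counted once.

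All cells carried a doxycycline-inducible lentiviral hairpin, either the control shScr or shRNF8 against RNF8, a ubiquitin ligase of the DNA damage response. Hybrids were precipitated from sonicated chromatin with the S9.6 antibody in 2 shScr and 4 shRNF8 libraries, and libraries with the same numbers were made after treatment with an RNase that the labels give only as a code. For mRNA-seq there were 3 libraries of each hairpin. RNA values are averages over all cells of a culture, in which fewer expressing cells and less RNA per cell cannot be told apart. Whether libraries came from separate cultures is not stated, so each p-value reflects library-to-library spread that may be technical.

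An R-loop forms when nascent RNA pairs again with the DNA template behind RNA polymerase and leaves the other DNA strand unpaired. R-loops are known to form over the first part of transcribed genes, above all where the promoter is a CpG island, a stretch rich in CG dinucleotides that is usually unmethylated. G-rich RNA pairs tightly with C-rich template, and clusters of G on the unpaired strand are known to favour the structure. RNase H degrades the RNA of such hybrids, and factors of RNA export, splicing and termination, among them the exonuclease XRN2, limit their number.

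RNF8 mRNA was at 28.0 to 29.1 CPM in the shScr libraries and at 7.93 to 9.99 CPM in the shRNF8 libraries. CPM are read counts scaled to the library total after its adjustment by edgeR's TMM normalization factor. The marker genes of mesenchymal-type breast cancer lines were abundant (VIM 892 to 1148 CPM, CD44 559 to 587 CPM), whereas ESR1, PGR, PTPRC, CD3E and CDH5 stood at 0 to 0.103 CPM. Markers of luminal breast cells were not all near 0. ERBB2 stood at 48.4 to 62.7 CPM, FOXA1 at 3.30 to 5.25 CPM and GATA3 at 1.06 to 1.41 CPM. The fibroblast markers COL1A1 and PDGFRA stood at 1.12 to 4.96 and 0.0515 to 0.812 CPM, and the endothelial PECAM1 at 0.0533 to 0.92 CPM. The RNA libraries held 18121181 to 20006954 counts and the S9.6 lists 32358 to 50963 peaks. How many reads lie behind a peak list is unknown. The lists of shRNF8 replicates 3 and 4 stood apart from those of replicates 1 and 2, and the peak names inside them carry the stems of replicates 1 and 2 although the peaks differ. Results that rest on them are therefore also given by replicate.

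The RefSeq promoters of 3 strong single starts and of 2 highly expressed genes without any peak over the window show the sequences at issue. The first set is the 3 starts with the highest mean fold whose position equals a RefSeq start and that have no start on the other strand within 1000 bp. The second set is the protein-coding genes with the highest mRNA level per length and no peak in any library, by the same condition on position. Each line gives the 250 bases before and the 50 bases from the start on (GRCh38.p14), 5′ to 3′ on the strand of the gene, with runs of at least 3 G in capitals.
MAGEA4: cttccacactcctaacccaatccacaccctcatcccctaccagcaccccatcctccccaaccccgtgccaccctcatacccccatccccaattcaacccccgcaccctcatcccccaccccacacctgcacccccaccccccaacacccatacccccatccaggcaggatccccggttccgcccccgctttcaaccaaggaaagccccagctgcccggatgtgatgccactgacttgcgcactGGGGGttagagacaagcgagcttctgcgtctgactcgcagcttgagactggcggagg
CKS2: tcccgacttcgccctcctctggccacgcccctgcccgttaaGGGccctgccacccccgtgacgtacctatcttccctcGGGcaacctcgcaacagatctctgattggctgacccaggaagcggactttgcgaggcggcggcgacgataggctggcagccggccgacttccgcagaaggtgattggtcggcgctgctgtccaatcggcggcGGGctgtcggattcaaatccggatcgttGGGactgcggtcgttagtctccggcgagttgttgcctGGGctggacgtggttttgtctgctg
LINC01578: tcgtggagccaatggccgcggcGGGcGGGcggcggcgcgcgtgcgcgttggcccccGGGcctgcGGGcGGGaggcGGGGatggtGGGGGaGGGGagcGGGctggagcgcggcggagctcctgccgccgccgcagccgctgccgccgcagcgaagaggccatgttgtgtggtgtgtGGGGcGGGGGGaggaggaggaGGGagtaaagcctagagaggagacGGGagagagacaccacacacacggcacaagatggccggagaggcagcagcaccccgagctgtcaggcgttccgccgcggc
TUBA1C: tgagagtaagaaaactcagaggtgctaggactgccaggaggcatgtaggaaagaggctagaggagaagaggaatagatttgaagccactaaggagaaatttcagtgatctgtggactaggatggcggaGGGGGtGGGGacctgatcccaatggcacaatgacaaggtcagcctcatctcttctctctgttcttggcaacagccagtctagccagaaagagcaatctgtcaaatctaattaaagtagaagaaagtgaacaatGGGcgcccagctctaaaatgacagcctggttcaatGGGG
IL1B: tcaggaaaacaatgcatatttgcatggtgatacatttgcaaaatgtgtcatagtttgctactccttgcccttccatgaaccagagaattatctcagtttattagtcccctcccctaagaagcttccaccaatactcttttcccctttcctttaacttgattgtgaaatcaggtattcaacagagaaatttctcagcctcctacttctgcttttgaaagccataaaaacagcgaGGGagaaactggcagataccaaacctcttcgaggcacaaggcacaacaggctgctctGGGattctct
The MAGEA4 window (chrX:151912639-151912938, plus strand), of a cancer-testis antigen gene, held 1 run of G and 21 runs of at least 3 C, so its runs of G lay on the template strand. The window of CKS2 (chr9:89310945-89311244, plus strand), a cofactor of cyclin-dependent kinases, held 5 runs of G and 8 runs of C. The LINC01578 window (chr15:92882593-92882892, plus strand), of a long noncoding RNA gene, held 13 runs of G and 2 of C and was the only one of the 5 with a G-quadruplex motif (4 runs of at least 3 G separated by 1 to 7 bases) on the gene's strand. Its strongest peaks had folds of 14.5 and 19.2 in shScr and of 20.3, 10.5, 35.3 and 35.6 in shRNF8 replicates 1 to 4. TUBA1C (chr12:49227676-49227975, plus strand), an alpha-tubulin gene, and IL1B (chr2:112836730-112837029, minus strand), an inflammatory cytokine gene, stood at 380 and 346 FPKM (fragments scaled to exon length and the adjusted library total) in shScr. Their windows held 48.0% and 42.3% G and C, against 63.7%, 64% and 74.7% in MAGEA4, CKS2 and LINC01578. The start used is the outermost one of the table, and a gene may be transcribed from another.

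Hybrid peaks gathered around single starts, with the densest bin just inside the gene. Summits were most frequent 0 to 100 bp downstream of single starts in 5 libraries and 100 to 200 bp downstream in shScr replicate 1, with 16.3 to 31.1 summits per 1000 starts in that bin against 4.12 to 5.73 more than 4 kb away. The median summit lay 131 and 104 bp downstream in shScr and 104, 128, 77.0 and 46.0 bp downstream in shRNF8 replicates 1 to 4. Of the summits in the set, 64.3% and 60.8% lay downstream in shScr and 60.2%, 63.0%, 56.5% and 53.9% in shRNF8. The share was above 50% in 6 of 6 libraries, by 9.77 percentage points on average (SD 3.93, n = 6; exact sign-flip permutation over libraries, two-sided, p = 0.03125, the smallest possible, adjusted p = 0.0402 over the 9 comparisons made). Summits 1000 to 2000 bp from the starts were already 55.25% to 58.3% downstream. Against that share in the same library the excess was 3.34 points (SD 3.66, n = 6), present in 5 of 6 libraries and reversed in shRNF8 replicate 4 (-1.76 points), and it did not pass the test (exact sign-flip permutation, p = 0.0938, adjusted p = 0.12). By the exons of the table, 35.6% to 46.0% of summits were upstream, 23.5% to 35.6% in an exon, 25.7% to 27.7% in an intron and 2.52% to 3.02% past the end of a short gene. Within 250 bp of the start lay 34.8% to 44.0% of the summits, and 57.7% to 61.8% of the peaks covered the start itself. At the edge of the window, each library held 245 to 321 summits in the last 100 bp inside it and 208 to 300 in the first 100 bp outside.

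**Figure D1:**
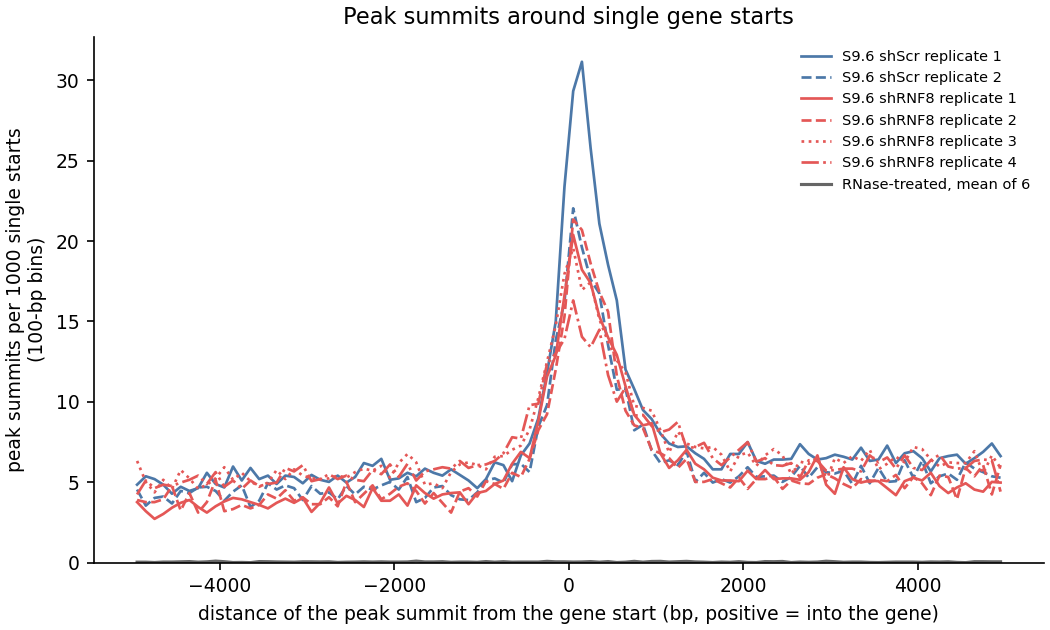
Number of peak summits per 1000 single starts in 100-bp bins (vertical axis) against the distance from the gene start in bp (horizontal axis, positive into the gene), for the 2 shScr (blue) and 4 shRNF8 (red) S9.6 libraries and the mean of the 6 RNase-treated libraries (grey). The S9.6 lines peak between 0 and 200 bp downstream at 16.3 to 31.1 and level off at 4.12 to 5.73 more than 4 kb away, while the grey line stays near 0.

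The peaks were higher and broader than the other peaks of the same libraries. The authors' fold enrichment over local background had a median of 5.46 and 5.69 at single starts in shScr and of 6.11, 5.43, 5.08 and 4.84 in shRNF8 replicates 1 to 4, beside 4.96, 5.27, 5.44, 5.13, 4.66 and 4.44 for the other peaks in the same order. Folds are the authors' values and were compared only within a library. The ratio of the medians averaged 1.09 and exceeded 1 in 6 of 6 libraries (log2 0.12, SD 0.03, n = 6; exact sign-flip permutation, p = 0.03125, adjusted p = 0.0402). The median width was 656 to 890 bp against 502 to 639 bp for the other peaks, a ratio of 1.34 that also held in 6 of 6 libraries (log2 0.43, SD 0.06; same test and p). Peaks at divergent starts were wider still in each library, with medians of 686 to 1195 bp, a difference that was not tested. Of the peaks at single starts, 13.4% to 25.8% were wider than 2000 bp, against 9.03% to 16.3% of the others, and the widest spanned 65870 bp. Single starts gave 9.40% to 14.6% of all peaks and 15.7% to 23.8% of those above the 90th percentile of fold.
Compared with divergent starts, which gave 523 to 676 peaks a library, the median fold at single starts was slightly lower in 6 of 6 libraries (ratio 0.964, log2 -0.05, SD 0.05, n = 6; exact sign-flip permutation, p = 0.03125, adjusted p = 0.0402). That comparison lost its call with a window of 500 bp (exact sign-flip permutation, adjusted p = 0.161).

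The strongest peaks lay at starts of very different genes. NEAT1 (chromosome 11, start 65422798), the long noncoding RNA that builds paraspeckles, led with folds of 49.5 and 43.1 in shScr and of 60.5, 41.1, 94.9 and 72.5 in shRNF8 replicates 1 to 4. Its summit lay at -633 and -569 bp from the start (upstream) in shScr and at 140, 142, 464 and 571 bp (downstream) in shRNF8. The RNase-treated library of shRNF8 replicate 4 also had a summit at this start (fold 4.33). No shRNF8 library therefore had its NEAT1 summit on the side where both shScr libraries had it, which was noticed after the values were seen and was not tested. CCDC85B (chromosome 11, start 65890404), an intronless gene, had folds of 52.9, 61.7, 52.6, 30.8, 33.7 and 32.5 in the same order, with summits at -8 to -6 bp in 5 libraries and at 635 bp in shScr replicate 1. MAGEA4 (chromosome X, start 151912889) had folds of 64.9, 47.8, 21.2, 22.6, 40.7 and 35.3, all with summits 32 to 280 bp downstream. CKS2 (chromosome 9, start 89311195) had folds of 49.1, 56.1, 25.9, 20.7, 21.0 and 14.4, and it was the one gene of the 12 with all summits upstream, at -640 to -203 bp.
Housekeeping and stress genes were also among the 12. GAPDH (chromosome 12, start 6534405), the glycolytic enzyme, had folds of 20.2 to 43.8 with summits in a narrow span 560 to 642 bp downstream. GADD45A (chromosome 1, start 67685177), a growth arrest gene induced by DNA damage, had folds of 24.6 to 46.3 and summits 332 to 957 bp downstream. The others were SLC25A1 (21.9 to 38.9), the mitochondrial citrate carrier, AKAP8 (21.7 to 35.1), a nuclear kinase-anchoring protein, and HNRNPF (19.98 to 37.4), a splicing factor that binds G-rich RNA.
The other 3 starts belonged to genes with little or no mRNA. FAM83E stood at 0.0533 FPKM with folds of 15.8 to 42.0, PGAM2, the muscle phosphoglycerate mutase, at 2.69 FPKM with folds of 19.8 to 44.5, and MIR937 at 0 with folds of 27.1 to 57.4. MIR937 lies inside SCRIB, so its peak cannot be assigned to either gene.

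**Figure D2:**
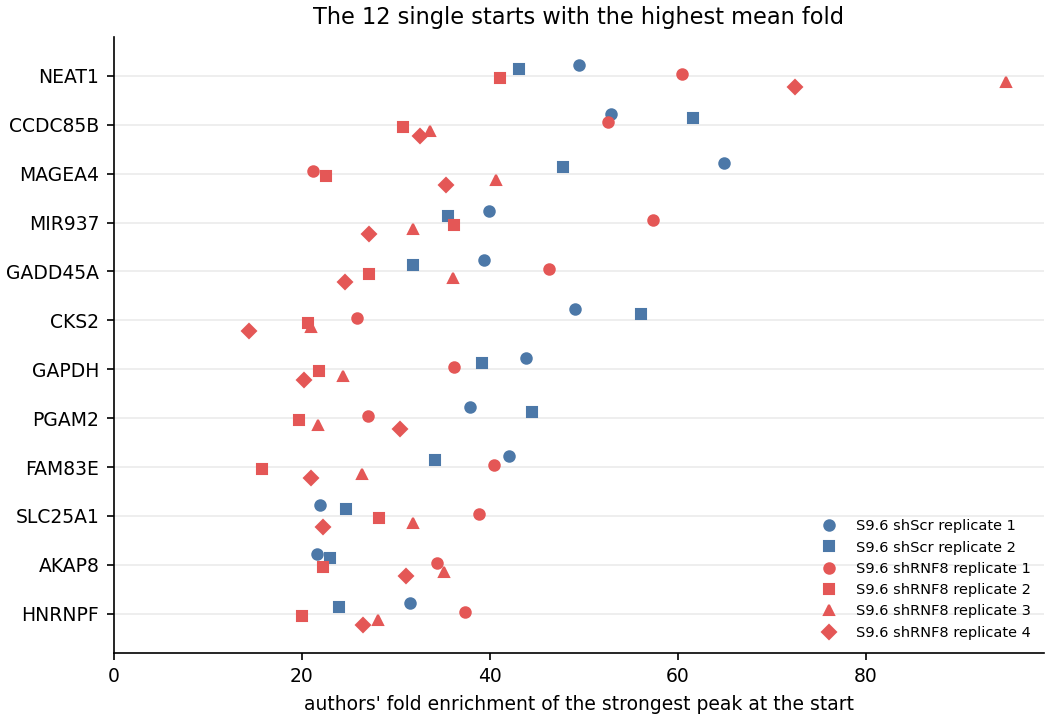
The authors' fold enrichment (horizontal axis, linear) of the strongest peak at each of the 12 single starts with the highest mean fold (rows), 1 symbol for each S9.6 library. NEAT1 spans 41.1 to 94.9, and the starts below it overlap widely between 14.4 and 64.9.

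Few starts had a summit in every library. Of 23057 single starts, 1081 (4.69%) had a summit in all 6 libraries, 7401 in 1 to 5, and 14575 (63.2%) in none. Each library had a summit at 4096 to 5371 starts. The 2 shScr libraries shared 3485 starts, which were 64.9% of those of replicate 1 and 82.4% of those of replicate 2. Summits at starts occupied in all 6 libraries had a median width of 813 to 1749 bp, and those at starts occupied in a single library 366 to 443 bp.
A summit can miss a start that a broad peak covers. In all 6 libraries a peak reached the 1000-bp window of 3426 starts (14.9%), beside the 1081 with a summit in all 6. Among starts at 100 FPKM and over, 60.55% had such a peak in all 6 libraries and 19.8% had a summit in all 6. Of the starts with no summit in any library, 599 were overlapped by a peak within 1000 bp in at least 1 library and 273 in all 6. RPL8, a ribosomal protein gene at 4145 FPKM, was of this kind, and so was JUN.

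Starts of genes with more mRNA had a peak more often. Genes with under 10 counts over the 6 RNA libraries were taken as silent and those with at least 1 CPM in shScr as expressed. Of the 11027 expressed single starts, 39.5% and 31.2% had a peak in shScr and 32.5%, 30.5%, 33.1% and 30.1% in shRNF8 replicates 1 to 4. Of the 9005 silent ones, 5.89% and 4.48% had one in shScr and 3.62%, 4.39%, 5.11% and 4.56% in shRNF8. The difference averaged 28.1 percentage points, and the ranges of the classes did not overlap (SD 2.93, n = 6, higher in 6 of 6 libraries; exact sign-flip permutation, p = 0.03125, adjusted p = 0.0402).
By mRNA level per exon length in shScr, the share of starts with a peak was 12.3% ± 1.71 (SD, n = 6 libraries) under 1 FPKM, silent genes aside, 26.6% ± 3.26 from 1 to 10, 42.1% ± 3.94 from 10 to 100 and 54.2% ± 6.86 from 100 FPKM on. The share rose from class to class in each of the libraries. In the top class of 545 starts it was 65.3% and 57.6% in shScr and 51.2%, 56.0%, 48.4% and 46.8% in shRNF8. The hairpins did not overlap there, a difference seen after the values were known and not tested. Peaks at the most abundant genes were also the broadest, with a median width of 1135 to 1618 bp against 549 to 759 bp at silent genes.
Silent starts with a peak mostly had an active gene close by. Of the 1011 silent starts with a summit in at least 1 library, 707 (69.9%) lay inside or within 5 kb of a gene expressed at 1 CPM or more, compared with 1329 of 7994 silent starts without one (16.6%). Among silent starts far from such genes, 4.36% had a summit in any library, and among those near one 34.7%. Whether the hybrid at such a start belongs to the neighbour was not tested, since the peak lists carry no strand.

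**Figure D3:**
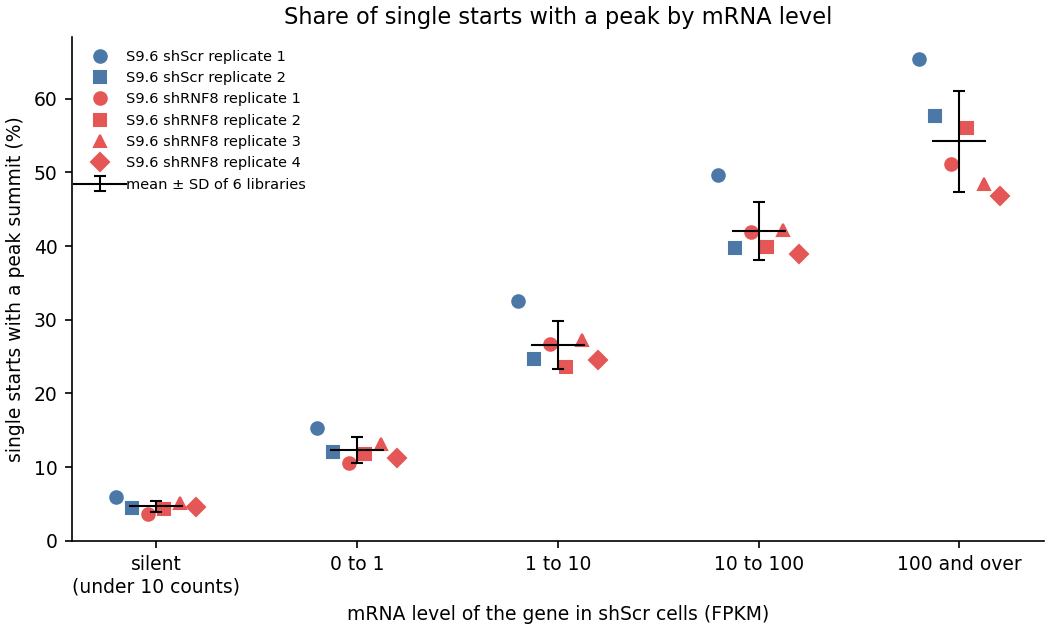
Share of single starts with a peak summit in percent (vertical axis) by mRNA level of the gene in shScr cells in FPKM (horizontal axis), 1 symbol for each of the 6 S9.6 libraries, with the mean and SD in black. The mean climbs from 4.67% at silent genes to 54.2% at 100 FPKM and over.

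Lists of genes with a common function held occupied starts at very different rates. Ribosomal protein genes, with a median of 685 FPKM, had a summit in at least 1 library at 60 of 70 single starts (85.7%), beside 86.2% of all starts at 100 FPKM and over and 36.8% of all starts. RPL17 was occupied in all 6 libraries (folds 7.19 to 25.9), RPS21 in all but shRNF8 replicates 3 and 4 with folds of 16.0 to 21.4, and RPL36 in shScr replicate 2 alone. A peak nevertheless covered the windows of RPS21 and RPL36 in all 6. SR and hnRNP proteins, which bind pre-mRNA during splicing, had a summit in all 6 libraries at 12 of 34 starts (35.3%), against 4.69% of all starts and 12.4% of starts at 10 to 100 FPKM, the class that holds their median of 52.7 FPKM. HNRNPF, HNRNPU (12.9 to 35.8) and SRSF2 led this list, and SRSF2 lacked a summit only in shRNF8 replicate 4, where a peak still covered its window.
The genes that act on R-loops and termination had summits at 17 of 26 starts (65.4%), 4 of them in all 6 libraries (15.4%). Their median of 29.6 FPKM lies in the class from 10 to 100 FPKM. In that class 72.1% of all starts had a summit and 12.4% had one in all 6. SRSF1, a splicing factor known to prevent R-loops, was occupied in all 6 (5.54 to 13.2) and the RNA export factor ALYREF in 4 (6.83 to 11.3). ALYREF lacked a summit in shRNF8 replicates 3 and 4, although a peak covered its window in all 6. RNASEH2C, a subunit of RNase H2, had a summit in shScr replicate 1 alone (20.5), although a peak covered its window in all 6. XRN2, at 42.0 FPKM, had no peak over its window in any library, and RNF8 had a summit in shRNF8 replicate 3 alone (5.01).
Immediate-early genes, which respond to growth signals within minutes, had summits at 13 of 20 starts, among them IER3 (27.4 to 43.6 in 3 libraries) and FOSL1 (18.1 to 32.9 in 4). Both lacked one in shRNF8 replicates 3 and 4, and IER3 also in shScr replicate 2. A peak covered both windows in all 6. Mitochondrial ribosomal proteins had them at 37 of 58, with MRPL28 (11.2 to 36.6) and MRPL24 (11.3 to 27.9) in all 6, and respiratory complex subunits at 39 of 66, with only 2 in all 6. The counts were 21 of 31 for the proteasome, 11 of 17 for tRNA synthetases, 9 of 14 for early elongation factors of RNA polymerase II and 13 of 21 for S-phase genes, none of the last in all 6. Each of these lists, from immediate-early to S-phase genes, had its median at 10 to 100 FPKM. Their shares of starts with a summit, 59.1% to 67.7%, lay below the 72.1% of all starts in that class. ATP5B, the beta subunit of ATP synthase, was at 543 FPKM and had no peak over its window in any library.
Lists with little mRNA were not alike. Olfactory receptors had one at 3 of 370 starts, none in more than 2 libraries, and keratin-associated proteins at 0 of 92. HOX genes, at a median of 0.45 FPKM, had one at 10 of 33 starts (30.3%) and none in all 6, beside 26.4% of all starts under 1 FPKM that were not silent and 11.2% of silent ones. Replication-dependent histone genes had one at 9 of 42 starts, and 4 of the 9 were occupied in all 6 libraries, as at HIST1H1E (8.24 to 29.7) and HIST1H1B (7.03 to 21.0). Their mRNA lacks a poly(A) tail, and whether the RNA libraries were selected for one is not stated.
Zinc finger genes of the ZNF family had a summit at 207 of 478 starts (43.3%) at a median of 2.14 FPKM, beside 53.8% of all starts from 1 to 10 FPKM. snoRNA host genes, at a median of 31.7 FPKM, had one at 8 of 17 (47.1%), beside 72.1% of all starts from 10 to 100 FPKM. None of them had one in all 6 libraries, and SNHG5, at 753 FPKM, had no peak over its window in any library.

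**Figure D4:**
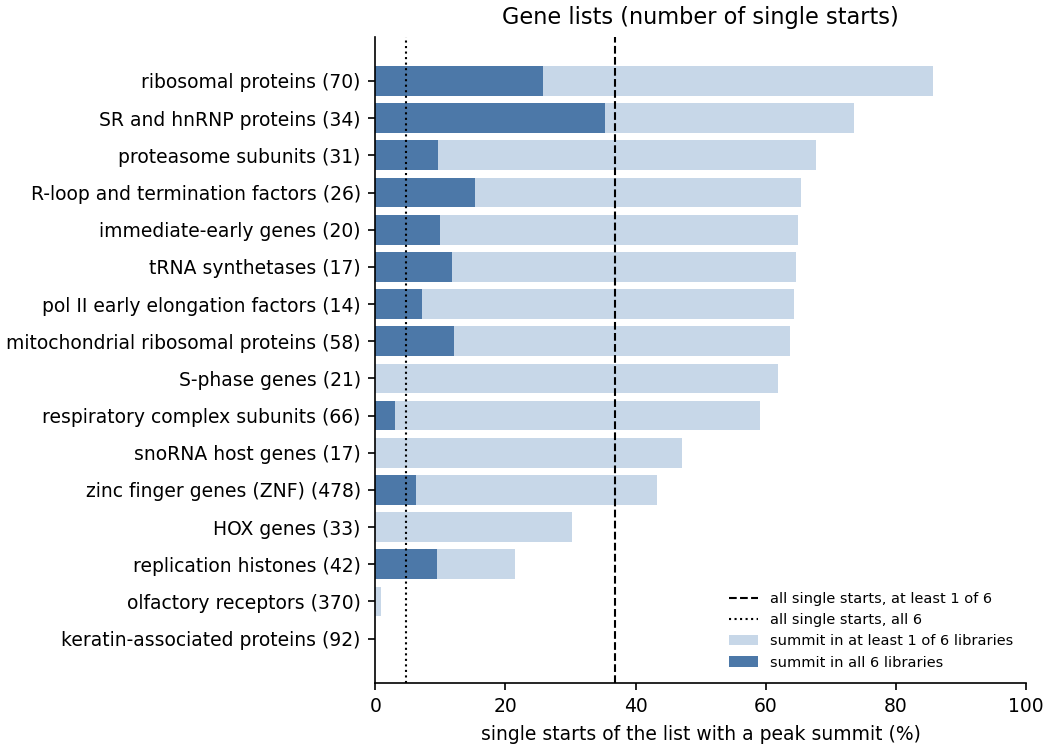
Share of the single starts of each gene list with a peak summit in percent (horizontal axis), in at least 1 of 6 S9.6 libraries (light bars) or in all 6 (dark bars), with the number of starts after each name. Dashed and dotted lines mark 36.8% and 4.69%, the shares among all single starts.

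Of 8 loci often used as positive controls in DRIP assays, GADD45A alone had a summit in all 6 libraries. ACTB had one in 2 libraries (18.2 and 28.2), RPL13A and BTBD19 in 1 each, and TFPT, APOE and JUN in none. A peak nevertheless covered the windows of ACTB, RPL13A, TFPT, APOE and JUN in all 6. The BTBD19 window was covered in both shScr libraries and in shRNF8 replicates 3 and 4. Of 4 loci used as negative controls, HBB and SNRPN had no peak over the window, MYADM had a summit in 3 shRNF8 libraries (4.79 to 8.41) and a peak over the window in all 6, and ZNF554 had a summit in all 6 (4.87 to 10.9). MYADM mRNA was at 48.1 FPKM and ZNF554 mRNA at 1.80 to 3.30 CPM in shScr, so neither gene was silent in these cells.

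The promoters of occupied starts were rich in G, C and CG. A RefSeq promoter of 300 bases whose start lay within 50 bp of the table's start was found for 9800 single starts (42.5%), 560 of them occupied in all 6 libraries. Median G and C content was 68.3% at starts occupied in all 6, 66.0% at those occupied in 1 to 5 and 54.7% at empty ones. The observed over expected ratio of CG was 0.868, 0.822 and 0.425. Promoters with at least 55% G and C and a ratio of at least 0.65, here called CpG-rich, made up 83.6%, 69.7% and 31.6%. CpG-rich promoters were also more frequent at higher mRNA levels, with 13.2% of silent starts and 78.2% of those at 10 to 100 FPKM.
Within 1 class of mRNA level the contrast was smaller. From 10 to 100 FPKM, 88.4% of starts occupied in all 6, 80.9% of those in 1 to 5 and 66.3% of empty ones were CpG-rich, with median G and C contents of 69.3%, 67.3% and 61.3%. From 100 FPKM on, the median was 62.8% at starts occupied in all 6, 65.0% in 1 to 5 and 58.8% at the 30 empty ones. Seen the other way, CpG-rich starts had a summit in at least 1 library more often than other starts in every class, from 18.5% against 6.45% at silent genes to 91.1% against 78.3% from 100 FPKM on. For summits in all 6 libraries the order turned from 100 FPKM on, with 21.5% of CpG-rich and 25% of other starts.
Strand asymmetry was small in these windows, which end 50 bases into the gene. The median skew, (G - C)/(G + C) on the gene's strand, was 0.03 at starts occupied in all 6 libraries, 0.00 at 1 to 5 and 0.01 at empty ones. Over the last 100 bases of the window it was 0.08, 0.05 and 0.02. That order did not hold within any class of mRNA level. The skew was 0.05, 0.02 and 0.03 under 1 FPKM, silent starts aside, and 0.07, 0.05 and 0.06 from 1 to 10 FPKM. It was 0.11, 0.06 and 0.07 from 10 to 100, and 0.05, 0.03 and 0.04 from 100 FPKM on. Among silent starts it was -0.01 at 1 to 5 and 0.00 at empty ones. Over all mRNA levels, a G-quadruplex motif stood on the gene's strand in 22.9%, 22% and 11.8% of promoters in the same order. On the other strand it stood in 23%, 20.9% and 10.4%. Of all 9800 the shares were 15.9% and 14.7%. On the gene's strand the order did not hold at every mRNA level: it was 18.4%, 23.4% and 17.4% from 1 to 10 FPKM and 8.93%, 19.4% and 16.7% from 100 FPKM on. The letters GGGCGG, the box bound by SP1, were found on either strand in 80.2%, 70.8% and 38.1% (51.7% of all). The shares lay closer at 85.1%, 77.6% and 66.2% from 10 to 100 FPKM and 73.2%, 70.9% and 70.0% from 100 FPKM on. At empty silent starts the share was 20.8%. CCGGAAG, the core of ETS factor sites, was found on either strand in 22%, 15.5% and 7.88% (11.3% of all). The ETS letters showed no such order from 10 to 100 FPKM (22.98%, 19.9% and 23.1%). The TATA letters TATAAA were found in 3.75%, 5.74% and 15.6% (11.6% of all). Empty silent starts held them in 21.8%, and the shares were 3.24%, 4.12% and 6.25% from 10 to 100 FPKM and 7.14%, 14.6% and 6.67% from 100 FPKM on. The letters CCAAT were at 40.0%, 34.9% and 37.7% (36.9% of all). These are matches of letters within 300 bases and show no binding. None of the 5 printed windows held TATAAA, and the GC box was present at MAGEA4 and LINC01578.

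**Figure D5:**
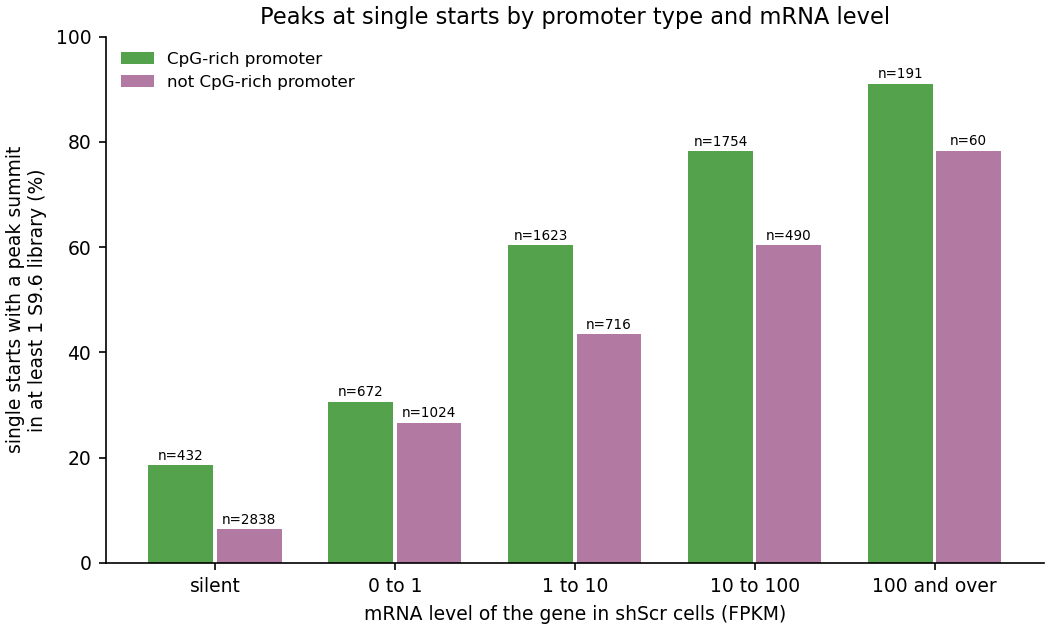
Share of single starts with a summit in at least 1 S9.6 library in percent (vertical axis) by mRNA level in FPKM (horizontal axis), for starts with a CpG-rich promoter (green) and without one (purple), with the number of starts above each bar. Green exceeds purple in each class, by most from 1 to 10 FPKM (60.4% against 43.4%) and from 10 to 100 FPKM (78.2% against 60.4%).

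RNase treatment left few peaks at single starts. The treated libraries held 19 and 35 such peaks in shScr and 3, 14, 72 and 19 in shRNF8 replicates 1 to 4, where the untreated ones held 6006, 4646, 4729, 4630, 5036 and 4562. These were 2.60%, 3.51%, 1.18%, 3.34%, 3.77% and 2.75% of the treated lists, beside 12.2%, 12%, 14.6%, 13.6%, 9.88% and 9.40% of the untreated ones. No treated library reached the lowest untreated one on either measure. Peaks of all kinds became fewer, with 254 to 1912 in the treated lists and 32358 to 50963 in the untreated ones. The drop in number was therefore not particular to single starts. The share differed by 9.09 percentage points (11.9% ± 2.03 against 2.86% ± 0.935, SD, n = 6 each; exact permutation within hairpins, two-sided, p = 0.00476, the smallest possible, adjusted p = 0.0214), and the number by 7.94 on the log2(count + 1) scale, or 246-fold (same test and p).
Of the 1081 starts with a summit in all 6 untreated libraries, 19 had one in any treated library. DAND5 (chromosome 19, start 12969618), a gene for a secreted inhibitor of TGF-beta family ligands, was the only such start with a summit in 4 treated libraries. Its folds were 11.3 and 13.0 in treated shScr and 8.08 and 8.62 in treated shRNF8 replicates 1 and 2, and 16.7, 13.5, 5.56, 14.1, 8.96 and 7.33 in the untreated libraries. DAND5 mRNA was at 0.246 FPKM. A summit in at least 1 treated library was found at 111 single starts in all, 88 of them in 1 library.

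Single starts took a similar share of the peaks under both hairpins. It was 12.2% and 12% in shScr and 14.6%, 13.6%, 9.88% and 9.40% in shRNF8 replicates 1 to 4. Replicates 1 and 2 lay above both shScr libraries, and replicates 3 and 4 lay below them. The means were 12.1% ± 0.12 (SD, n = 2) and 11.9% ± 2.61 (n = 4), a difference of -0.24 percentage points (exact permutation over 15 splits, two-sided, p = 0.933, adjusted p = 0.933, where the smallest p possible is 0.0667). With shRNF8 replicates 1 and 2 alone the difference was 1.99 points higher in shRNF8 (exact permutation p = 0.333), so that its sign rests on which libraries are used.
The number of single starts with a peak was 5371 and 4232 in shScr and 4251, 4153, 4517 and 4096 in shRNF8, and shScr replicate 2 lay within the shRNF8 range. The mean was 547 starts lower in shRNF8 (4802 ± 805, n = 2, against 4254 ± 187, n = 4; exact permutation p = 0.2, adjusted p = 0.225). Without shScr replicate 1 it was 22.3 starts higher. The difference was -59.5 starts with any overlap of the peak and -272.8 with an equal number of peaks per library.
Among merged regions, in which peaks of the 6 libraries that overlap by at least 1 bp are joined, 8833 of 73564 held a summit at a single start. Of these, 2865 (32.4%) had a peak in all 6 libraries, beside 10.9% of all regions. A peak in all 4 shRNF8 and in no shScr library was found at 109 (1.23%), beside 0.73% of all regions. The reverse, both shScr and no shRNF8 library, was found at 229 (2.59%), beside 2.49% of all regions. These are counts without a test, and the shares of the second kind are near the background.
At the level of summits, 112 single starts had one in all 4 shRNF8 and no shScr library, and at 91 of them no shScr peak reached the window. The strongest of the 112 were nevertheless covered in shScr. JUNB, an AP-1 transcription factor (folds 23.7 to 28.0), PABPN1, the nuclear poly(A)-binding protein (15.9 to 31.8), RUSC1 (12.7 to 30.2), GRIN2D (14.6 to 25.1) and RPL31 (12.1 to 28.6) had a peak over the window in both shScr libraries, with its summit elsewhere. HIGD1A (chromosome 3, start 42804535), which encodes a mitochondrial protein induced by hypoxia, was the exception among the 6 strongest, with folds of 17.5, 6.70, 8.89 and 7.81 and no shScr peak over its window. PSMD3, a proteasome subunit that ranked below these 6, was also among the 91, with folds of 8.72, 5.001, 8.09 and 8.88.
In the other direction, 277 starts had a summit in both shScr and no shRNF8 library, and at 191 no shRNF8 peak reached the window. The 6 strongest, ZNF580 (34.6 and 30.6), PPP1R15A (24.5 and 17.1), RANBP1 (18.3 and 20.8), RUSC1-AS1 (15.9 and 17.1), TMED1 (14.4 and 18.5) and MPDU1 (14.1 and 18.7), were covered by a peak in all 4 shRNF8 libraries. RUSC1-AS1 (start 155324147, minus strand) and RUSC1 (start 155320849, plus strand) overlap on chromosome 1, each start inside the other gene, and the summit stood near the first in shScr and near the second in all 4 shRNF8 libraries. ZNF580 (start 55641026) and ZNF581 (start 55643620) are neighbours on chromosome 19, and ZNF581 had its summits in shRNF8 replicates 1 and 2 (73.1 and 46.2). A peak covered the ZNF581 window in all 6 libraries.
The shRNF8 replicates also differed among themselves. A summit in replicates 1 and 2 and in neither 3 nor 4 was found at 645 starts, and the opposite at 767.

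Few genes with a peak in every library changed in mRNA. Of 993 tested genes with a summit in all 6 libraries at a single start, 35 (3.53%) were called, 6 higher and 29 lower in shRNF8, beside 356 of all 14018 genes tested (2.54%), 136 higher and 220 lower (edgeR quasi-likelihood test, Benjamini-Hochberg adjusted p under 0.05). The median log2 fold change was -0.02 for these genes and 0.00 for all tested. The count rested on single libraries, and so did that over all genes. Without RNA shScr replicate 1 it was 319 (32.0% of these genes, beside 27.1% of all genes tested). Without any other RNA library it was 2 to 11 (0.2% to 1.1%, beside 0.322% to 0.93% of all genes tested).
TCOF1, which promotes transcription of ribosomal RNA genes, was at 343, 232 and 275 CPM in shScr and 147, 148 and 132 CPM in shRNF8, and the groups did not overlap. It fell by 0.99 on the log2 scale (SE 0.13, edgeR adjusted p = 0.0046). FAM20C, a kinase of secreted proteins, went from 72.7, 84.3 and 95.7 CPM to 49.9, 47.4 and 39.7 CPM (log2 -0.88, SE 0.12, edgeR adjusted p = 0.00564). SUSD2 (log2 -1.22), the AP-1 repressor JDP2 (-0.92) and the homologous recombination factor ZSWIM7 (-0.76) fell as well, with edgeR adjusted p of 0.0402, 0.0232 and 0.0421.
DCBLD2, a membrane receptor of the neuropilin type, was at 925, 1145 and 1076 CPM in shScr and at 1598, 1613 and 1591 CPM in shRNF8. It rose by 0.61 (SE 0.10, edgeR adjusted p = 0.00978). The chromatin protein gene HMGA2 (0.66), the linker histone gene HIST1H1C (0.98), the Wnt receptor gene FZD6 (0.51) and ARL6IP1 (0.48) rose too, with edgeR adjusted p of 0.017, 0.0285, 0.0159 and 0.0444. HIST1H1C was also low, at a mean of 2.88 CPM in shScr and 5.70 CPM in shRNF8. Each of these 10 genes lost its call without RNA shRNF8 replicate 3 (edgeR adjusted p of 0.066 to 0.18), with log2 fold changes of the same sign, as for TCOF1 (-0.94), FAM20C (-0.79) and HIST1H1C (1.09). SUSD2, JDP2, ZSWIM7, HIST1H1C, FZD6 and ARL6IP1 kept the call in only 1 of the 6 fits that leave out a library, with edgeR adjusted p of up to 0.212. ZSWIM7 also lost it when counts were scaled by library size only (edgeR adjusted p = 0.0564). Among the genes with a summit in all 4 shRNF8 and no shScr library, 3 of 101 tested were called (2.97%). Among those with the reverse it was 4 of 229 (1.75%), beside 2.54% of all genes tested.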

How the data were processed

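Per the labels, S9.6 and RNase-treated DRIP-seq libraries (2 shScr and 4 shRNF8 of each) and 6 RNA libraries of MDA-MB-436 cells were used, and input libraries were not analysed here. The authors deposited 1 peak list per library, whose fold enrichment (a ratio over local background) and −log10 q values came from their peak caller; which control it used is not given in the sources used here. The deposited RNA counts per gene came from featureCounts with paired reads and no strand option, per the file headers. The submitters' processing notes name Trim Galore 0.6.6, Bowtie2 2.2.6, STAR 2.7.9a, SAMtools 1.14, Picard 2.10.9, MACS2 2.2.7.1, deepTools 3.5.1, Subread 2.0.1 and hg38.
Gene starts were the outermost exon ends in the count table, in genes with 1 locus. Of the single starts, 1291 had a start on the other strand within 1000 bp that formed no divergent pair by the rule. Library measures were compared with exact permutation tests, two-sided, with Benjamini-Hochberg adjustment over 9 comparisons (Python 3.11.15, SciPy 1.17.1, pandas 2.3.3). Counts were tested with edgeR 4.0.16 (R 4.3.3) over all 14018 genes that passed its filter on low counts, and with DESeq2 1.42.0 as an alternative. The scripts were tested on simulated data. FPKM used exon length on the primary chromosomes. RefSeq starts on the same strand were matched for 14981 single starts, and the 9800 within 50 bp gave the promoters.
The members, lists and rules were chosen with earlier results of these data known. Named genes were the 12 highest by mean fold with a summit in all 6 libraries, the 6 highest present under 1 hairpin only in each direction, up to 5 with summits in at least 4 RNase-treated libraries, 5 called genes in each direction of mRNA, up to 3 occupied and 2 empty members of each list, DRIP control genes, RNF8 and XRN2. Same-numbered RNA libraries did not deviate together, so the replicate numbers were not taken to pair samples. Some genes of these lists are not reported here.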

Additional observations from a re-analysis of the deposited data

Results flagged for a closer look

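CCDC85B had a fold of 52.56 in shRNF8 replicate 1, while the other 3 shRNF8 libraries lay between 30.76 and 33.69. The gap to the nearest library was 0.8656 of the range, above Dixon's critical value for 4 libraries. Both shScr libraries were as high (52.9 and 61.7). Of 21 sets of values tested this way, chance alone sets apart about 1 in 20.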

How the results depend on the processing

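The difference in the share of peaks at single starts between hairpins (-0.24 points) changed sign with a window of 2000 bp (0.304), with any overlap of the peak in place of the summit (0.827) and with shRNF8 replicates 1 and 2 only (1.993). With the replicate block it was also 1.993, since the numbers shared by both hairpins are 1 and 2. Leaving out 1 library gave -1.151 to 0.5879, with the sign changed without shRNF8 replicate 3 (0.4264) or 4 (0.5879). For the number of starts with a peak the range was -1117 to 22.25, and it was -59.5 with any overlap. Against divergent starts, the log2 ratio of folds was -0.05112 with a window of 500 bp and missed the threshold. Of the genes with a peak in all 6 libraries, 35 were called, against 55 with no filter on low counts, 73 with DESeq2, 45 with the replicate block and 2 to 319 when 1 RNA library was left out. In that order, these alternative counts were 5.15%, 7.42%, 4.53% and 0.2% to 32.0% of such genes tested. The shares of all genes tested were 3.24%, 6.32%, 3.57% and 0.322% to 27.1%. With a peak in at least 1 library, 191 of 6871 tested genes were called (2.78%), beside 2.54% of all genes tested. Over all genes, 356 calls became 648 with no filter, 852 with DESeq2 and 46 to 3865 with 1 library left out. At a −log10 q of at least 5, 70 regions were present in all 4 shRNF8 libraries alone, not 109. Of 2 alternatives chosen after seeing the data, setting the downstream share against that of summits 1000 to 2000 bp away lowered the excess to 3.343 points and ended the call. The other, leaving out starts with an opposite-strand start within 1000 bp, changed no call or direction. The number of reads behind each peak is unknown, and with 2 shScr libraries no hairpin comparison of peaks could fall below p = 0.0667 (exact permutation).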

Other observations

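Chromosomes differed in how many of their single starts had a summit in at least 1 S9.6 library. The share was 57.3% on chromosome 19, 52.5% on 22, 49.6% on 16 and 45.7% on 17, against 20.4% on 13 and 25.9% on both 4 and X. By RefSeq class, 43.0% of starts of protein-coding genes had a summit, 19.2% of lncRNA genes, 27.8% of miRNA genes and 33.2% of snoRNA genes. Many miRNA and snoRNA genes lie inside other genes, and their own share was not separated from that of the host.
Among protein-coding genes at 1 FPKM and over, those with a summit in all 6 libraries had a median span of 23830 bp and a median level of 20.02 FPKM, and those with none 42700 bp and 6.66 FPKM.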
